A study of Danio rerio with 69 samples.

Results

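The vitamin A genes rpe65a, rlbp1a and cyp27c1 were followed through every condition of a zebrafish (Danio rerio) array series on the pineal gland. They were taken by symbol from the platform annotation, which gave 4 probe sets among the 15502 tested, and 3 genes among the 8793 named. The symbol rpe65a belonged to 2 probe sets, Dr.12451.2.A1_at and Dr.12451.1.S1_at, called the first and the second here. The first had the higher mean over all arrays and stands for the gene where none is named. The genes rlbp1a (Dr.11085.1.A1_at) and cyp27c1 (Dr.11380.1.A1_at) had 1 probe set each. Of the 3, rpe65a and cyp27c1 encode enzymes, and rlbp1a encodes a binding protein.

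Photoreceptors detect light with opsins bound to 11-cis retinal, a form of vitamin A that light converts to its all-trans form. In the visual cycle of the eye the 11-cis form is made again: RPE65 isomerizes and cleaves retinyl esters in the pigment epithelium, and CRALBP, the product of the RLBP1 genes, binds the 11-cis product and aids its release and protection. In zebrafish, Cyp27c1 converts vitamin A1 to vitamin A2, which shifts visual pigments towards longer wavelengths. The zebrafish pineal holds its own photoreceptors, which express the opsin exorh, and secretes melatonin at night.

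All fish carried a transgene in which the promoter of aanat2, a melatonin synthesis gene of the pineal, drives green fluorescent protein. That fluorescence guided the dissection of the pineals by hand; the comparison tissue, called brain, lacked both pineal and eyes. Fish lived at 28.5 °C with 14 h of light and 10 h of dark. Day and night samples were taken at 3, 5 and 10 days, together called larval here, and at 3 months and 1 to 2 years, together called adult. Each of the 20 groups of age, tissue and time held 2 to 5 arrays labelled as biological replicates, 69 in all, with 38 from pineal and 31 from brain. The labels used here do not give how many glands or brains went into a sample.

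Arrays had median intensities of 114.3 to 221.9, and those sharing a group correlated at 0.767 to 0.971. The dissections separated the tissues: summed intensity of the 11 measured pineal markers of 13 listed was 5847 to 29035 on larval and 51473 to 101731 on adult pineal arrays, against 1488 to 4518 and 1865 to 5876 on brain arrays. Summed intensity of 18 skin markers was 34843 to 171134 on adult pineal arrays and 2741 to 15181 on adult brain arrays, and in larvae 27522 to 152812 and 15262 to 83613. For 6 measured pigment cell and pigment epithelium markers the sums were 163 to 1610 on pineal and 193 to 913 on brain arrays. These 6 were pmelb, tyr, dct, mitfa, sox10 and mc1r. Most of that list was not measured, best1, pmela and tyrp1b among them, so the sum covers pigment epithelium only in part. For 13 retinal neuron and lens markers the sums were 932 to 9355 on pineal and 692 to 6304 on brain arrays. No measured marker of these lists was at 0 on all pineal or on all brain arrays. The intensity ratio of the 3′ to the 5′ GAPDH control probe set, which can rise as RNA degrades, exceeded 3 on 10 of the 34 arrays taken by day and 1 of the 35 taken at night. Array values below are deposited intensities; differences are log2 differences after normalization, with the standard error of the limma fit.

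In the pineal, rpe65a, the isomerase gene, had high intensities in larvae and higher ones in most adult samples. At 3 days the 3 day arrays read 3999, 7706 and 8730, and the 4 night arrays 5583, 6958, 4215 and 8313. At 5 days the day arrays read 3948, 3805, 3895, 3207 and 10675, and the night arrays 5051, 4321, 6312 and 4918. At 10 days the day arrays read 4381, 1458, 2941 and 4588, and the night arrays 4907, 4395, 3038 and 4984. Day and night overlapped at each larval age, with 1 high array at 5 days and 1 low array at 10 days, both taken by day. In 3-month fish the day arrays read 14507, 15227 and 11489 and the night arrays 21047, 14895 and 24085. In fish of 1 to 2 years the values by day were 8868, 7861, 13368 and 13446, and by night 19309, 20535, 18629 and 12907. Day and night overlapped in adults too, and the lowest adult array, at 7861, lay below the highest larval array, at 10675.

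Brain intensities of rpe65a ranged from 105.2 to 929.8 on the 19 larval arrays and from 68.9 to 941.2 on the 12 adult arrays. No brain array reached the lowest pineal array, at 1458. On the second probe set pineal intensities ran from 284.3 to 28567 and brain intensities from 5.1 to 614.6; tissues overlapped there through a single 10-day pineal array, at 284.3, which lay below a 10-day brain array at 311.9. After normalization that pineal array was at 8.45 and the highest 10-day brain array at 8.43, so the tissues did not overlap at 10 days. Over all ages they still overlapped, since brain levels of other ages reached 9.23. The low pineal array, day replicate 2, had a GAPDH ratio of 10.4. Statements on ranges below use normalized levels.

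The level of rlbp1a, whose product carries 11-cis retinoids, was higher in adult than in larval pineal. By day at 3 days the pineal arrays read 774.3, 755.2 and 1828, and by night 509.8, 758.6, 346.7 and 423.3. At 5 days the values were 1092, 366.9, 727.5, 659.8 and 1580.2 by day, and 563.9, 302.5, 199.3 and 430.6 by night. At 10 days they were 339.5, 266.2, 508.7 and 661.6 by day, and 302.9, 502.7, 181.5 and 366.5 by night. The lowest value of each larval age was a night value. Normalized levels of night lay below those of day at 3 days and overlapped them at 5 and 10 days. The 3-month day arrays read 2096, 2125 and 4411, and the night arrays 2274, 2582 and 2903. At 1 to 2 years the day arrays read 3086, 1659, 2535 and 4829, and the night arrays 3154, 2087, 2829 and 2142. Adult night arrays lay inside the range of adult day arrays, and 1 larval array, at 1828, exceeded the lowest adult one, at 1659. Brain intensities were 16.4 to 184.8 in larvae and 37.0 to 121.8 in adults.

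For cyp27c1, the vitamin A2 enzyme, the lowest pineal levels were at 3 days, and day and night diverged in adults. At 3 days the day arrays read 348.8, 175.1 and 265.7, and the night arrays 115.3, 221.1, 139.1 and 327.7. At 5 days the day arrays read 1451, 996.4, 843.1, 794.2 and 1054, and the night arrays 674.8, 633.7, 734.8 and 626.0. At 10 days the day arrays read 2453, 1476, 1587 and 1552, and the night arrays 867.5, 1635, 1004 and 1046. Night values overlapped day values at 3 and 10 days and lay wholly below them at 5 days. By day at 3 months the arrays read 1408, 1406 and 2252, and by night 416.6, 432.5 and 956.0. At 1 to 2 years the day arrays read 5353, 4310, 1746 and 1682, and the night arrays 454.8, 641.2, 464.0 and 177.0. All 7 adult day arrays were above all 7 adult night arrays.

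**Figure D1:**
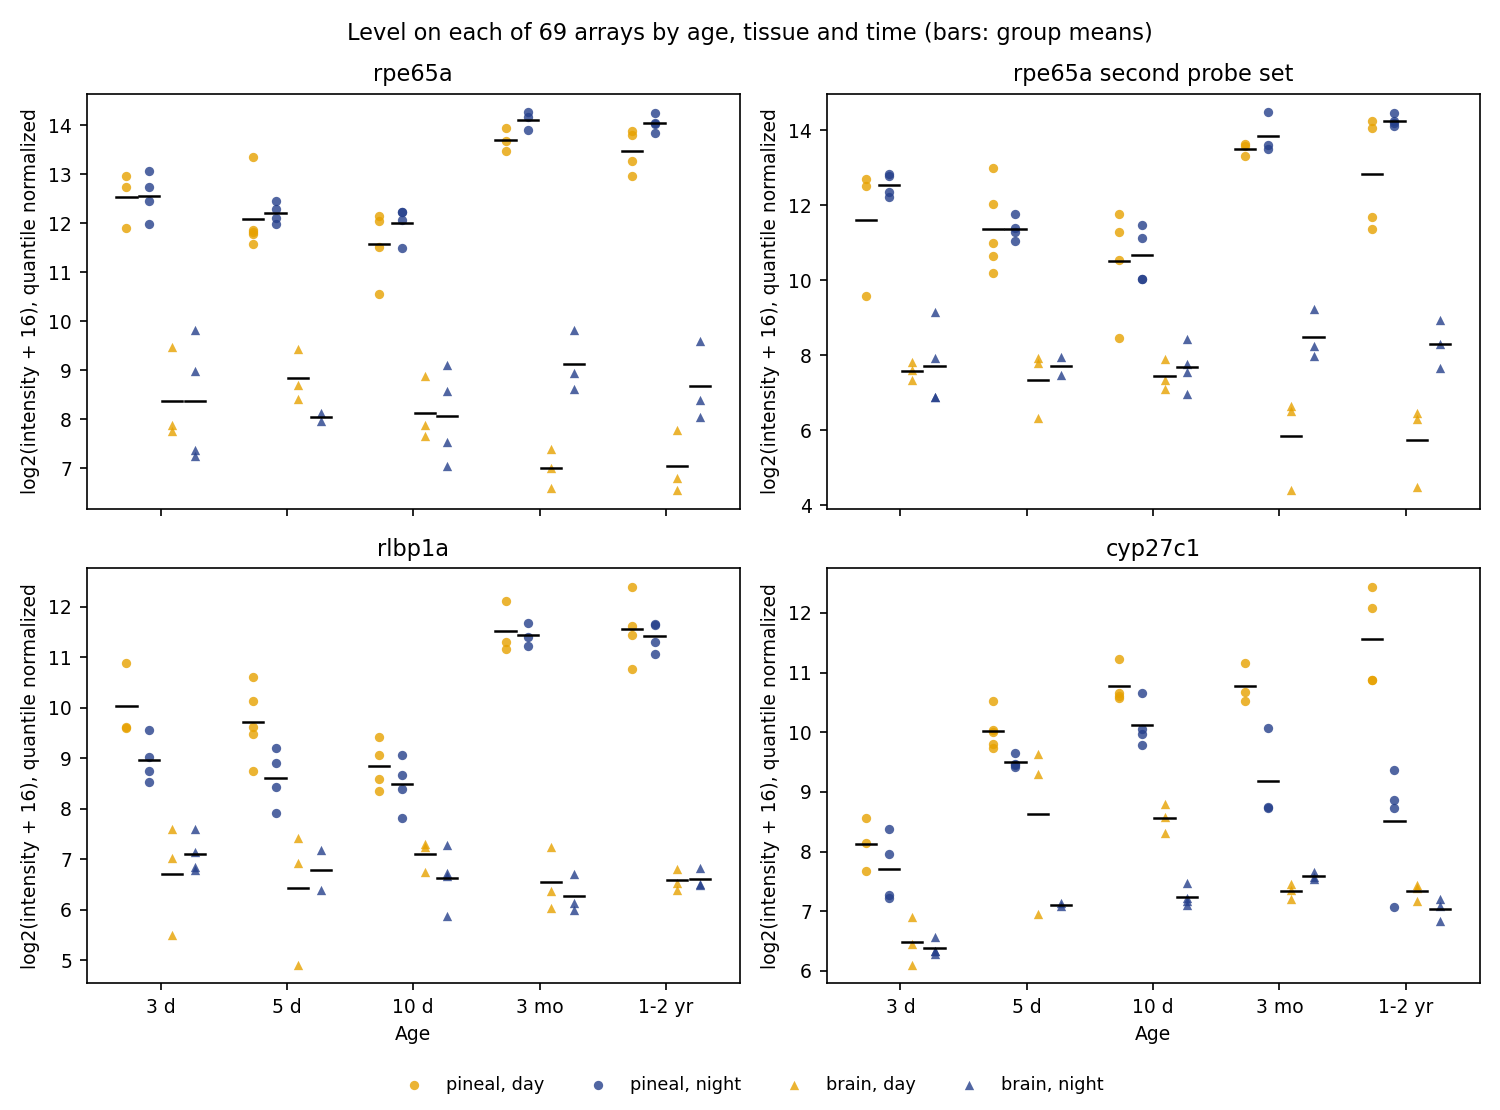
Each point is 1 of 69 arrays, placed by age (x axis) and normalized log2 level (y axis), for the rpe65a probe sets, rlbp1a and cyp27c1; circles are pineal, triangles brain, and bars group means. Pineal points of rpe65a and rlbp1a lie above brain points at each age, and cyp27c1 separates by day and night in adult pineal.

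The 20 group means were ordered and each gap to the next set against the pooled standard deviation within groups. For rpe65a the 4 adult pineal groups came first, at 13.48 to 14.11 on the log2 scale; neighbours among them differed by less than the pooled SD of 0.64. The 6 larval pineal groups followed after a gap of 0.92, and the brain groups after a gap of 2.44. Adult brain by day came last, with means of 7.05 at 1 to 2 years and 7.0 at 3 months, a gap of 1.00 below the next group. On the second probe set the gap after the adult pineal groups was 0.29, under its pooled SD of 0.92, and that before the brain groups 2.02. For rlbp1a the same 3 blocks appeared, with gaps of 1.38 after the adult and 1.38 after the larval pineal groups against a pooled SD of 0.59; within the larval block, day at 3 and 5 days stood 0.76 above the next group. For cyp27c1 the pineal of 1-to-2-year fish by day stood first, at 11.57 and 0.78 above the next group, with a pooled SD of 0.53. The same tissue by night ranked 10 of 20, at 8.51, and did not differ by more than the SD from brain by day at 5 and 10 days, at 8.63 and 8.56.

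All 3 genes were higher in pineal than in brain. Averaged over 5 ages and both times, rpe65a differed by 4.66 ± 0.14 (25.2-fold, adjusted p = 8.94e-38, limma), and by 4.86 ± 0.20 on its second probe set (adjusted p = 1.06e-30). For rlbp1a the difference was 3.38 ± 0.14 (10.4-fold, adjusted p = 7.86e-31), and for cyp27c1 2.26 ± 0.13 (4.78-fold, adjusted p = 8.15e-24). All 4 probe sets thus passed an adjusted p of 0.05 and a fold of 2, as did 2.51% of those tested in this direction. The members were chosen with earlier results of these data known, so such counts here and below are partly set by that choice. In bulk tissue, fewer cells of a type and less RNA per cell cannot be told apart. Skin markers were also higher in adult pineal than in adult brain, with sums that did not overlap, and pineal markers likewise; their part in these differences was not tested.

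Every age gave a pineal excess for each probe set. For rpe65a the larval excess was 4.18 ± 0.32, 3.70 ± 0.33 and 3.68 ± 0.31, youngest first, and the adult excess 5.84 ± 0.34 and 5.89 ± 0.32. For rlbp1a it was 2.60 ± 0.31, 2.56 ± 0.32, 1.80 ± 0.30, 5.07 ± 0.33 and 4.89 ± 0.31 in the same order. For cyp27c1 it was 1.48 ± 0.28, 1.89 ± 0.30, 2.54 ± 0.27, 2.52 ± 0.30 and 2.85 ± 0.28. The visual cycle genes thus had a larger excess at both adult ages than at any larval age, and cyp27c1 had its smallest at 3 days. All of these passed the test (largest adjusted p = 8.69e-05, for cyp27c1 at 3 days, limma), against 1.79%, 1.83%, 1.65%, 10.9% and 10.9% of all probe sets called higher in pineal at the 5 ages. Ranges of the 2 tissues did not overlap at any age for rpe65a and rlbp1a, where pineal lay above brain for 1.28%, 0.813%, 0.858%, 11% and 6.46% of all probe sets. For cyp27c1 they overlapped at 5 days and at 1 to 2 years.

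**Figure D2:**
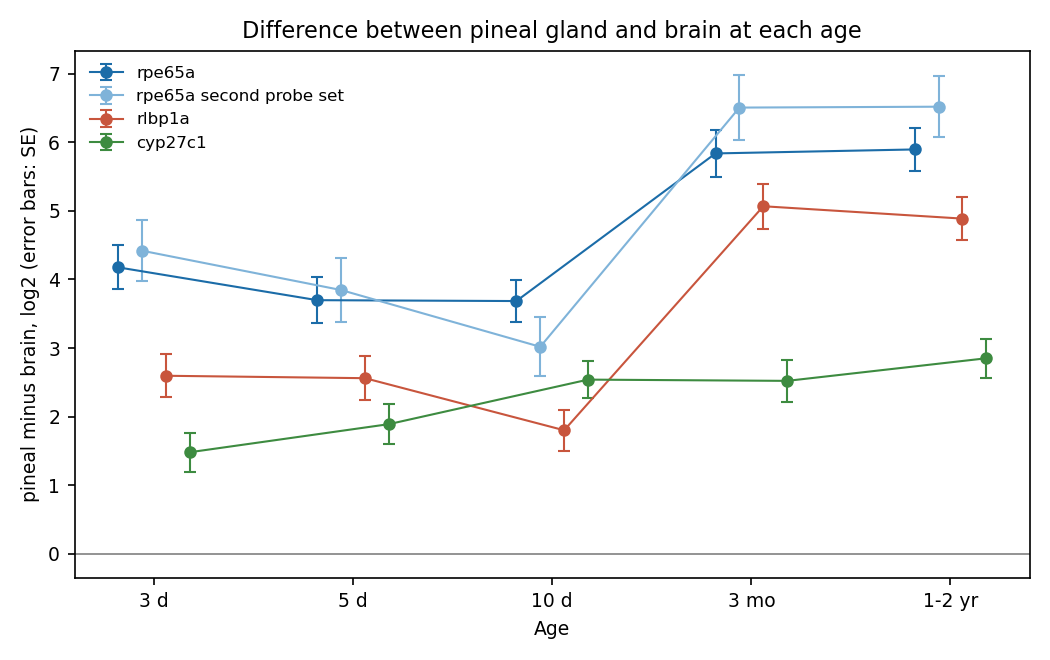
Difference between pineal and brain (y axis, log2, limma estimate with standard error) at each age (x axis) for the 4 probe sets. The excess of rpe65a and rlbp1a is larger at 3 months and 1 to 2 years, while that of cyp27c1 runs from 1.48 at 3 days to 2.85 at 1 to 2 years.

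Both visual cycle genes rose from larval to adult pineal, and neither was called in brain. In adult against larval pineal, rpe65a was higher by 1.67 ± 0.20 (3.18-fold, adjusted p = 1.24e-10, limma), its second probe set by 2.27 ± 0.28 (adjusted p = 3.88e-10) and rlbp1a by 2.37 ± 0.20 (5.17-fold, adjusted p = 1.25e-16). These 3 probe sets passed the test, against 8.46% of all probe sets called higher in adults. The difference for cyp27c1, 0.64 ± 0.18, had an adjusted p of 0.00214 but lay under 2-fold. In brain the adult minus larval difference was -0.34 ± 0.22 for rpe65a, -0.48 ± 0.31 for its second probe set, -0.29 ± 0.21 for rlbp1a and -0.08 ± 0.19 for cyp27c1, none called (adjusted p from 0.235 to 0.801), against 11.6% of probe sets called in either direction. The change in pineal exceeded that in brain by 2.01 ± 0.30 for rpe65a, 2.75 ± 0.42 for its second probe set and 2.66 ± 0.29 for rlbp1a, all called (largest adjusted p = 1.46e-07), as were 12.3% of probe sets in that direction. For cyp27c1 this difference of differences was 0.72 ± 0.26 (adjusted p = 0.026), under 2-fold. Without scaling between arrays the split of calls in adult against larval pineal moved from 1311 higher and 1106 lower to 2243 and 751; the 3 member calls held there. Summed pineal markers were also higher in adults, at 51473 or more against 29035 or less, and their part in the rise of rpe65a and rlbp1a was not tested.

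The age steps placed these changes. From 10 days to 3 months pineal rpe65a rose by 2.12 ± 0.32 (adjusted p = 1.59e-07, limma) and rlbp1a by 2.81 ± 0.31 (adjusted p = 2.60e-11), in a step in which 10.9% of probe sets were called higher. From 3 to 5 days and from 5 to 10 days neither gene was called, with differences of -0.40 and -0.36 for rpe65a and -0.34 and -0.50 for rlbp1a, against 2.66% and 6.73% of probe sets called in either direction. On the second rpe65a probe set these steps were -0.70 ± 0.42 and -0.79 ± 0.40, also not called (adjusted p = 0.361 and 0.194, limma). All these larval steps were negative, and the change from 3 to 10 days as a whole was not tested. From 3 months to 1 to 2 years the differences were -0.14 ± 0.32 for rpe65a, 0.00 ± 0.31 for rlbp1a and 0.05 ± 0.28 for cyp27c1, with none called, against 0.123% of probe sets in either direction. The gene cyp27c1 kept another schedule: it rose from 3 to 5 days, by 1.84 ± 0.26 in pineal (adjusted p = 1.84e-06) and by 1.43 ± 0.31 in brain (adjusted p = 0.00205), against 1.31% and 1.63% of probe sets called higher. The brain rise lay mostly on 5-day day replicates 1 and 2, at 9.63 and 9.31. The remaining 5-day brain arrays were at 6.95 to 7.14, and the 3-day brain arrays at 6.11 to 6.90. With 1 array left out the brain rise was 1.18 to 1.85. The next pineal steps of cyp27c1, 0.68 ± 0.25 from 5 to 10 days (adjusted p = 0.0552) and -0.46 ± 0.28 from 10 days to 3 months (adjusted p = 0.215), were not called.

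Pineal cyp27c1 was lower at night than by day. Averaged over the ages the night minus day difference was -1.25 ± 0.17 (2.37-fold, adjusted p = 3.93e-07, limma), a comparison in which 1.3% of probe sets were called lower at night. In larvae it came to -0.41 ± 0.40, -0.52 ± 0.35 and -0.65 ± 0.37, youngest first, and in adults to -1.60 ± 0.43 for 3 months and -3.06 ± 0.37 for 1 to 2 years. Of these ages 1 to 2 years alone passed the test (8.31-fold, adjusted p = 5.53e-08, limma); called lower at the 5 ages were 0.581%, 0.29%, 0.29%, 0.0968% and 0.232% of probe sets. Only 2 probe sets of 15502 had a smaller p at 1 to 2 years. For cyp27c1 at 3 months the adjusted p was 0.12; it was 0.0407 with 64 in place of 16 as the constant added before log2 and 0.000927 with array weights, and it missed the threshold under the other 10 alternatives. It was 0.0393 with a difference of -2.04 when the highest night array, at 956.0, was left out. Without 1 array of another group, the day array of 5-day brain numbered 3, it was 0.0285 at an unchanged difference. The range of night lay below that of day at 5 days, 3 months and 1 to 2 years, as it did for 0.91%, 6.85% and 2.7% of probe sets.

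The fall at night differed with age. Night minus day in adult pineal, less the same in larval pineal, came to -1.80 ± 0.35 (adjusted p = 0.00566, limma), against 0.135% of probe sets called in this direction, and all 7 adult night arrays lay below the 7 adult day arrays, as for 0.374% of probe sets. An F-test over the 5 ages gave an adjusted p of 0.0094, with 0.258% of probe sets called; it was 0.0546 without the lowest night array of 1 to 2 years, at 177.0. At that age the day arrays formed 2 pairs. Replicates 1 and 2, with cyp27c1 at 5353 and 4310, had GAPDH ratios of 3.98 and 2.89, and replicates 3 and 4, at 1746 and 1682, had ratios of 1.25 and 1.55. Without the arrays whose ratio exceeded 3 the difference at 1 to 2 years was -2.77 (adjusted p = 8.50e-06, limma). That step removed day replicate 1 of this age and kept replicate 2, with its ratio of 2.89. The lower pair of day arrays lay above all 4 night arrays. The part of RNA quality in the difference was not tested. Retinal neuron and lens markers summed to 9355, 8600, 3523 and 6293 on these day arrays and to 3914 to 5918 on the night arrays, and skin markers to 34843 to 95329 and 50211 to 171134. Pigment cell and pigment epithelium markers summed to 838 to 1610 by day and 492 to 917 by night. The part of these markers in the difference was not tested.

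The visual cycle genes gave no called night difference in pineal, against 2.64% of probe sets called in either direction. For rlbp1a the average was -0.56 ± 0.19 (adjusted p = 0.0998, limma), with a 95% interval from -0.93 to -0.18; at the 5 ages it was -1.07, -1.12, -0.37, -0.09 and -0.14, with adjusted p from 0.209 to 1. At 3 days the night range lay below the day range, as it did for 6.27% of probe sets. The change of its night difference from larval to adult pineal was 0.74 ± 0.39 (adjusted p = 0.698). For rpe65a the average was 0.31 ± 0.19 (adjusted p = 0.498, unadjusted interval from -0.08 to 0.70), and for its second probe set 0.58 ± 0.27 (adjusted p = 0.31). At 1 to 2 years the first probe set differed by 0.56 ± 0.42 and the second by 1.41 ± 0.59 (adjusted p = 0.819 and 0.459). The second read 3278 and 2550 on day replicates 1 and 2 there, 15384 and 18217 on replicates 3 and 4, and 20934, 23200.0, 20654 and 15019 at night. Its low day values were thus on the arrays with the higher GAPDH ratios.

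In adult brain, where rpe65a was dim, both of its probe sets read higher at night. At 3 months the first read 102.7, 71.9 and 115.7 by day, and 392.4, 941.2 and 498.4 by night. At 1 to 2 years it read 74.4, 185.8 and 68.9 by day, and 311.1, 793.9 and 292.5 by night. The second read 67.5, 5.1 and 50 by day at 3 months and 245.3, 614.6 and 296.9 by night, then 47.9, 5.6 and 62.6 by day at 1 to 2 years and 161.7, 473.8 and 344.4 by night. All 6 night arrays exceeded all 6 day arrays on either probe set, a pattern held by 0.948% of probe sets. The difference at 3 months was 2.12 ± 0.48 on the first probe set (adjusted p = 0.0316, limma) and 2.63 ± 0.68 on the second (adjusted p = 0.125), with 0.0581% of probe sets called higher. At 1 to 2 years it was 1.64 ± 0.48 (adjusted p = 0.0837) and 2.54 ± 0.68 (adjusted p = 0.0465), with 0.658% called higher. Each age thus had a call on 1 of the 2 probe sets. The uncalled difference of the first at 1 to 2 years passed under 2 of 13 alternatives, among them the second probe set itself. That of the second at 3 months passed under 2 of 12, and neither was called with any 1 array left out. The first's call at 3 months held under 7 of 13 alternatives; it ended with a constant of 64 (adjusted p = 0.0744), with only brain arrays (0.211), without the trend in the moderation (0.0874), and as described below with the GAPDH ratio. The second's call at 1 to 2 years held under 5 of 12. It ended without scaling (0.0597), with median centring (0.0843), with a constant of 64 (0.154) and without the trend (0.101). It also ended with a block of age, time and replicate number (0.0543), and as described below with the GAPDH ratio. The second's call at 1 to 2 years was also lost on leaving out any 1 of 25 of the 69 arrays. The adjusted p was 0.157 without day replicate 1 of that age, 0.708 without day replicate 2, 0.0711, 0.311 and 0.127 without night replicates 1, 2 and 3, and 0.0502 to 0.0515 without the other 20 arrays.

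The GAPDH ratio moved with time in those groups: it exceeded 3 on 4 of 6 adult brain day arrays, at 3.40, 5.58, 13.8 and 17.2, and on 0 of 6 night arrays. The 2 day arrays with low ratios, 1.64 and 1.27, read 115.7 and 68.9 on the first probe set, below every adult night array. Without the arrays above 3, which leaves 1 day array at each age whose spread is taken from the other groups, the differences were 1.73 and 2.12 on the first probe set and 1.85 and 1.84 on the second, and none was called (adjusted p = 1 each). With the log2 ratio as a covariate the differences at 1 to 2 years were 1.38 on the first and 0.90 on the second. The second's call at 1 to 2 years was lost there, as was the 3-month call on the first (adjusted p = 0.0879). The 3-month call on the first rpe65a probe set was also lost without day replicate 1 (adjusted p = 0.111), day replicate 2 (0.363), night replicate 2 (0.512) or night replicate 3 (0.112). Summed pineal markers were 2042 to 5876 by day and 1865 to 3626 by night in adult brain, in overlapping ranges. The part of RNA quality and of pineal tissue in the night difference was not tested.

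Averaged over ages in brain, rpe65a differed between night and day by 0.57 ± 0.22 (adjusted p = 0.245, limma) and its second probe set by 1.18 ± 0.30 (adjusted p = 0.0335), with 0.374% of probe sets called higher; the latter call was lost without any 1 of 12 arrays (adjusted p up to 0.116), with a constant of 64 (0.123), without the trend (0.0732), without high GAPDH ratios (0.662) and with the ratio as covariate (0.842). In larval brain at 5 days the first probe set read 679.4, 392.0 and 361.1 by day and 266.9 and 214.6 by night. That difference, -0.81 ± 0.54, was not called (adjusted p = 0.991, limma), against 0.142% of probe sets called lower. The second probe set went the other way, by 0.36 ± 0.76, uncalled and with overlapping ranges. On the first probe set day and night overlapped at 3 and 10 days. The change of the rpe65a night difference with age was not tested in brain. The difference between pineal and brain in night minus day was -0.26 ± 0.29 for rpe65a (adjusted p = 0.988).

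In brain cyp27c1 had no called night difference at any age; 0.548% of probe sets were called lower over all ages, 0.142% at 5 days and 0.0516% at 10 days. With array weights the 10-day difference was called (adjusted p = 0.0343, limma). At 5 days brain read 794.6, 606.9 and 119.4 by day and 114.7 and 107.9 by night, a difference of -1.52 ± 0.48 (adjusted p = 0.365, limma). Without the low day array it was -2.36 (adjusted p = 0.00255). At 10 days brain read 357.6, 429.7 and 287.8 by day and 107.4, 144.5, 152.7 and 146.6 by night, a difference of -1.32 ± 0.40 (adjusted p = 0.622), with night below day as for 3.66% of probe sets. At 3 months night lay above day, at 191.0, 160.0 and 162.7 against 121.0, 147.8 and 111.4, as for 8.97% of probe sets. At 3 days, 3 months and 1 to 2 years the differences were -0.10, 0.25 and -0.29, and over all ages -0.60 ± 0.19 (adjusted p = 0.136). Averaged over ages, night minus day in pineal less that in brain was -0.65 ± 0.26, not called (adjusted p = 0.702, unadjusted 95% interval from -1.16 to -0.14), with 0.0258% of probe sets called in that direction. By age, youngest first, the pineal differences were -0.41, -0.52, -0.65, -1.60 and -3.06 and the brain differences -0.10, -1.52, -1.32, 0.25 and -0.29. The adult differences were thus lower in pineal, and those at 5 and 10 days lower in brain; the difference between tissues at single ages was not tested. Night minus day in brain for rlbp1a was 0.01 ± 0.21 (adjusted p = 0.995).

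**Figure D3:**
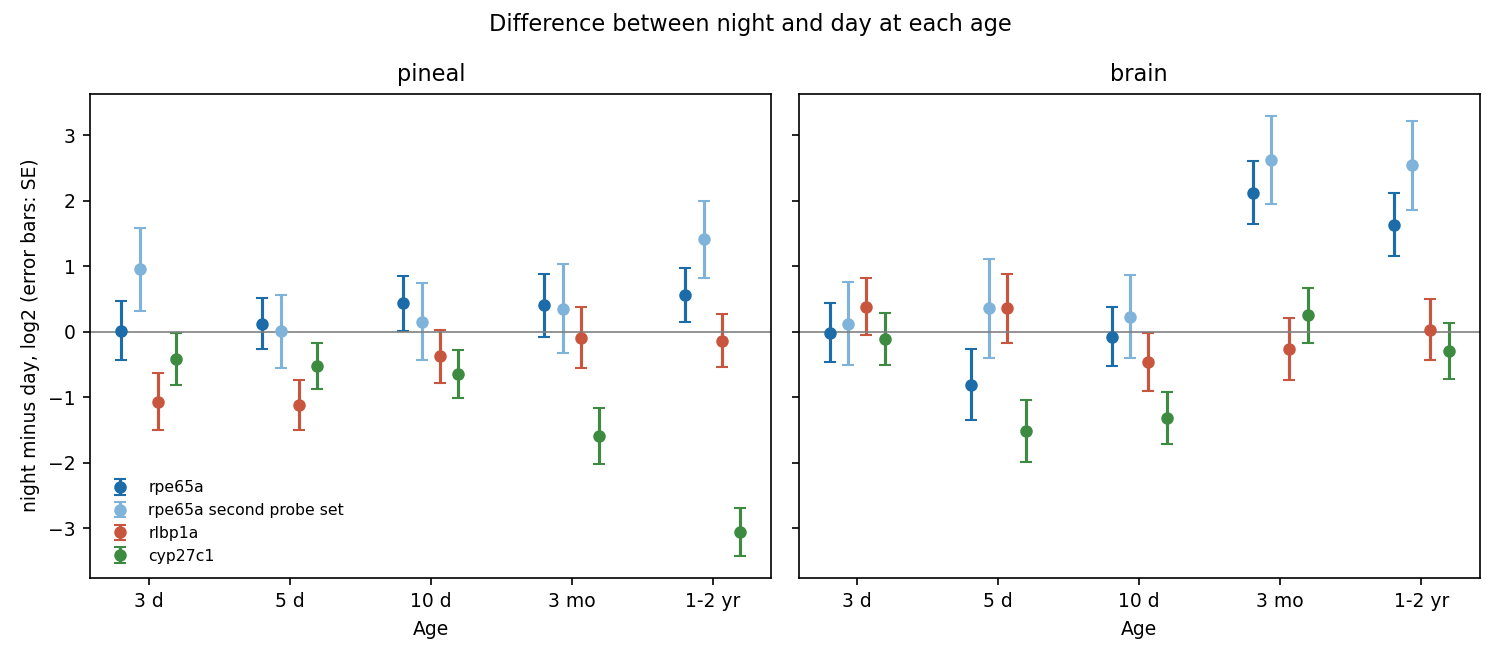
Difference between night and day (y axis, log2, limma estimate with standard error) at each age (x axis) in pineal (left) and brain (right). In pineal cyp27c1 reaches -3.06 at 1 to 2 years; in brain the rpe65a probe sets lie between 1.64 and 2.63 at 3 months and 1 to 2 years.

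The 2 rpe65a probe sets followed the same groups but parted further, in the median, on arrays with high GAPDH ratios. Over the 20 group means they correlated at r = 0.988. The second minus the first had a median of -2.04 on the 11 arrays with a ratio above 3 and of -0.46 on the other 58. The ranges overlapped, at -3.29 to -0.49 and -1.68 to 0.44. Over 69 arrays this difference and the log2 ratio gave r = -0.62 (permutation p = 1e-05, adjusted 2.67e-05) and Spearman's rho = -0.27 (p = 0.022, adjusted 0.044), with r = -0.61 without the 2 arrays farthest from the median ratio. Within pineal r was -0.63 (adjusted permutation p = 1e-04; -0.47 without the 2 farthest arrays) and rho -0.30 (adjusted p = 0.0961). Within brain r was -0.63 (adjusted permutation p = 0.00162; -0.62 without the 2 farthest) and rho -0.23 (adjusted p = 0.254). Taken as deviations from group means, r was -0.66 and rho -0.50 (adjusted p = 2.67e-05 and 0.00016), and -0.61 and -0.56 for the second probe set alone (adjusted p = 2.67e-05 and 8e-05). The corresponding values were -0.13 and -0.24 for the first (adjusted p = 0.312 and 0.0787), -0.04 and -0.11 for rlbp1a (0.745 and 0.387), and 0.31 and 0.32 for cyp27c1 (0.0129 and 0.0199). These were 8 relations, adjusted together, and 1e-05 is the smallest p that the permutations can give. Values were permuted across groups, so these p-values ignore the layout of age, tissue and time, with which the GAPDH ratio varied.

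**Figure D4:**
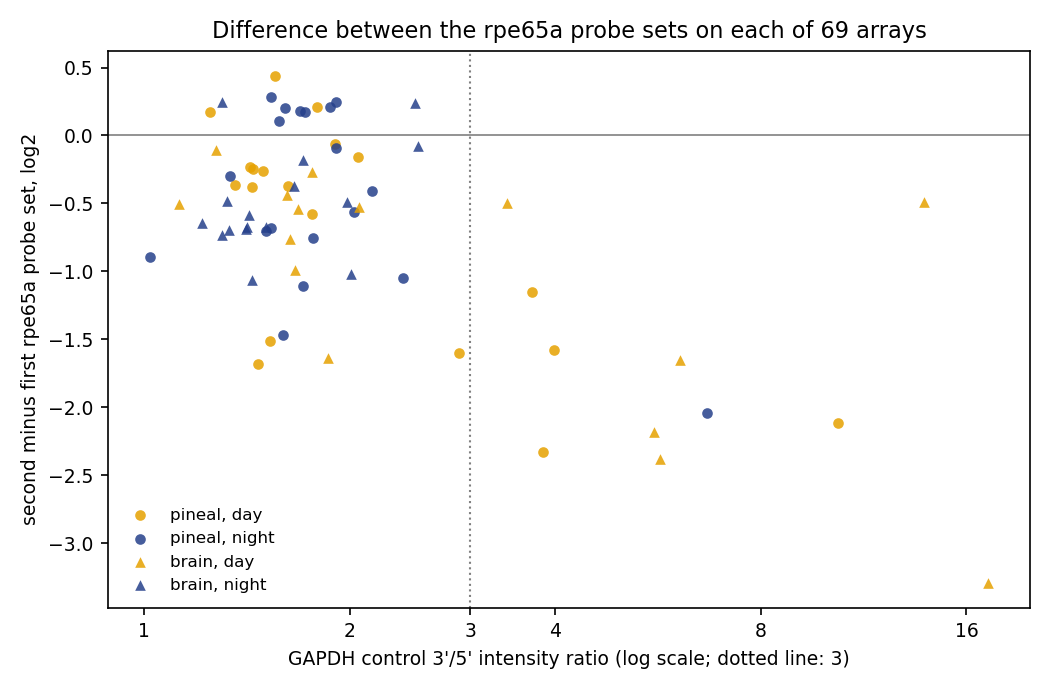
Second minus first rpe65a probe set (y axis, log2) against the GAPDH ratio (x axis, log scale) on each of 69 arrays; circles are pineal, triangles brain, yellow day and blue night. Arrays to the right of the dotted line at 3 have a median of -2.04, and those to its left -0.46.

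Likeness of profile was measured as Pearson's r of group means over the other 8792 genes, as a description. Over 20 groups the profile of rpe65a was nearest to syt5a, a synaptotagmin (0.986), then the agouti signalling gene asip2b (0.954), unc119.2 (0.953), the cone transducin gamma subunit gngt2a (0.951) and the photoreceptor guanylate cyclase gucy2f (0.951). For rlbp1a the nearest were asip2b (0.978), gucy2f (0.974), unc119.2 (0.974), ssbp3a (0.971) and the phosphodiesterase subunit pde6a (0.971). For cyp27c1 they were tmem237b (0.898), the sulfate transporter slc13a1 (0.895), nek7 (0.849), hsd11b2 (0.846) and tmem38b (0.844). These coefficients carry the split between pineal and brain. Over the 10 pineal groups alone other names came first: zgc:55943 (0.991), pcbd1 (0.987), slc25a3a (0.981), cfi (0.980) and guk1b (0.980) for rpe65a. For rlbp1a they were the cone phosphodiesterase subunit pde6c (0.986), ifi30a (0.985), s100a10b (0.983), adka (0.976) and snx5 (0.976). For cyp27c1 they were rrp8 (0.925), phyh (0.918), sltm (0.908), ca5a (0.901) and nptx1l (0.896). Among the members, rpe65a and rlbp1a correlated at 0.941 over 20 groups and 0.912 over the pineal groups. The values for cyp27c1 with rpe65a were 0.715 and -0.07, and with rlbp1a 0.705 and 0.17.

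The retinoid pathway was read from lists of known genes, of which the array annotation named a share. These lists include the members rpe65a, rlbp1a and cyp27c1, which were chosen with earlier results of these data known. Counts and medians of the lists that hold them are therefore partly set by that choice. List counts are of genes, and the shares beside them are of probe sets. Of 9 measured visual cycle genes of 32 listed, 3 were higher in pineal: the members rpe65a and rlbp1a, and rgrb. The gene rgrb, a retinal G protein-coupled receptor opsin, was higher by 1.35 ± 0.20. The other 6, the dehydrogenase or reductase genes rdh12l, rdh10b, rdh14b, dhrs3a and dhrs9 and the desaturase degs1, were not called, and the list's median was 0.20 against -0.01 over all named genes; 2.51% of all probe sets were called higher. Among 10 measured carriers and uptake genes of 19, 4 were higher. They were rbp4l at 5.99 ± 0.17, the interphotoreceptor retinoid carrier rbp3 at 4.31 ± 0.19, the uptake gene stra6 at 2.94 ± 0.09 and rbp2a at 1.43 ± 0.19. The retinoic acid binding protein crabp1a was lower, at -1.81 ± 0.15, against 3.28% of probe sets called lower. Of 12 measured genes of 16 in the list for retinoic acid synthesis and breakdown and carotenoid cleavage, only the member cyp27c1 was called. Its conversion of vitamin A1 to A2 is not one of these processes, and no other gene of that list was called. Of 7 receptor genes of 10 none was. Of 8 opsins of 22, exorh and opn1lw1 were higher, at 4.12 ± 0.16 and 2.61 ± 0.19.

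The same lists gave 3 higher visual cycle genes in adult against larval pineal, rpe65a, rlbp1a and rgrb (1.45 ± 0.28), with no lower one and a median of 0.68 against -0.02 over all named genes. Of the carriers 6 of 10 were higher, among them rbp3 at 2.34 ± 0.26 and stra6 at 1.87 ± 0.13, with a median of 1.55; 8.46% of all probe sets were called higher. At night no visual cycle gene was called in pineal. Among the 10 carriers, rbp3 (-2.64 ± 0.25), rbp4l (-1.59 ± 0.23), rbp4 (-1.54 ± 0.14) and crabp2a (-0.64 ± 0.19) were lower, as cyp27c1 was, against 1.3% of probe sets called lower. The receptors rarga (0.95 ± 0.22) and rarab (0.72 ± 0.20) were higher at night, against 1.34% of probe sets called higher. In brain rbp4 was also lower at night, by -1.56 ± 0.16 and rbp3 by -1.12 ± 0.28, where 0.548% of probe sets were called lower.

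**Figure D5:**
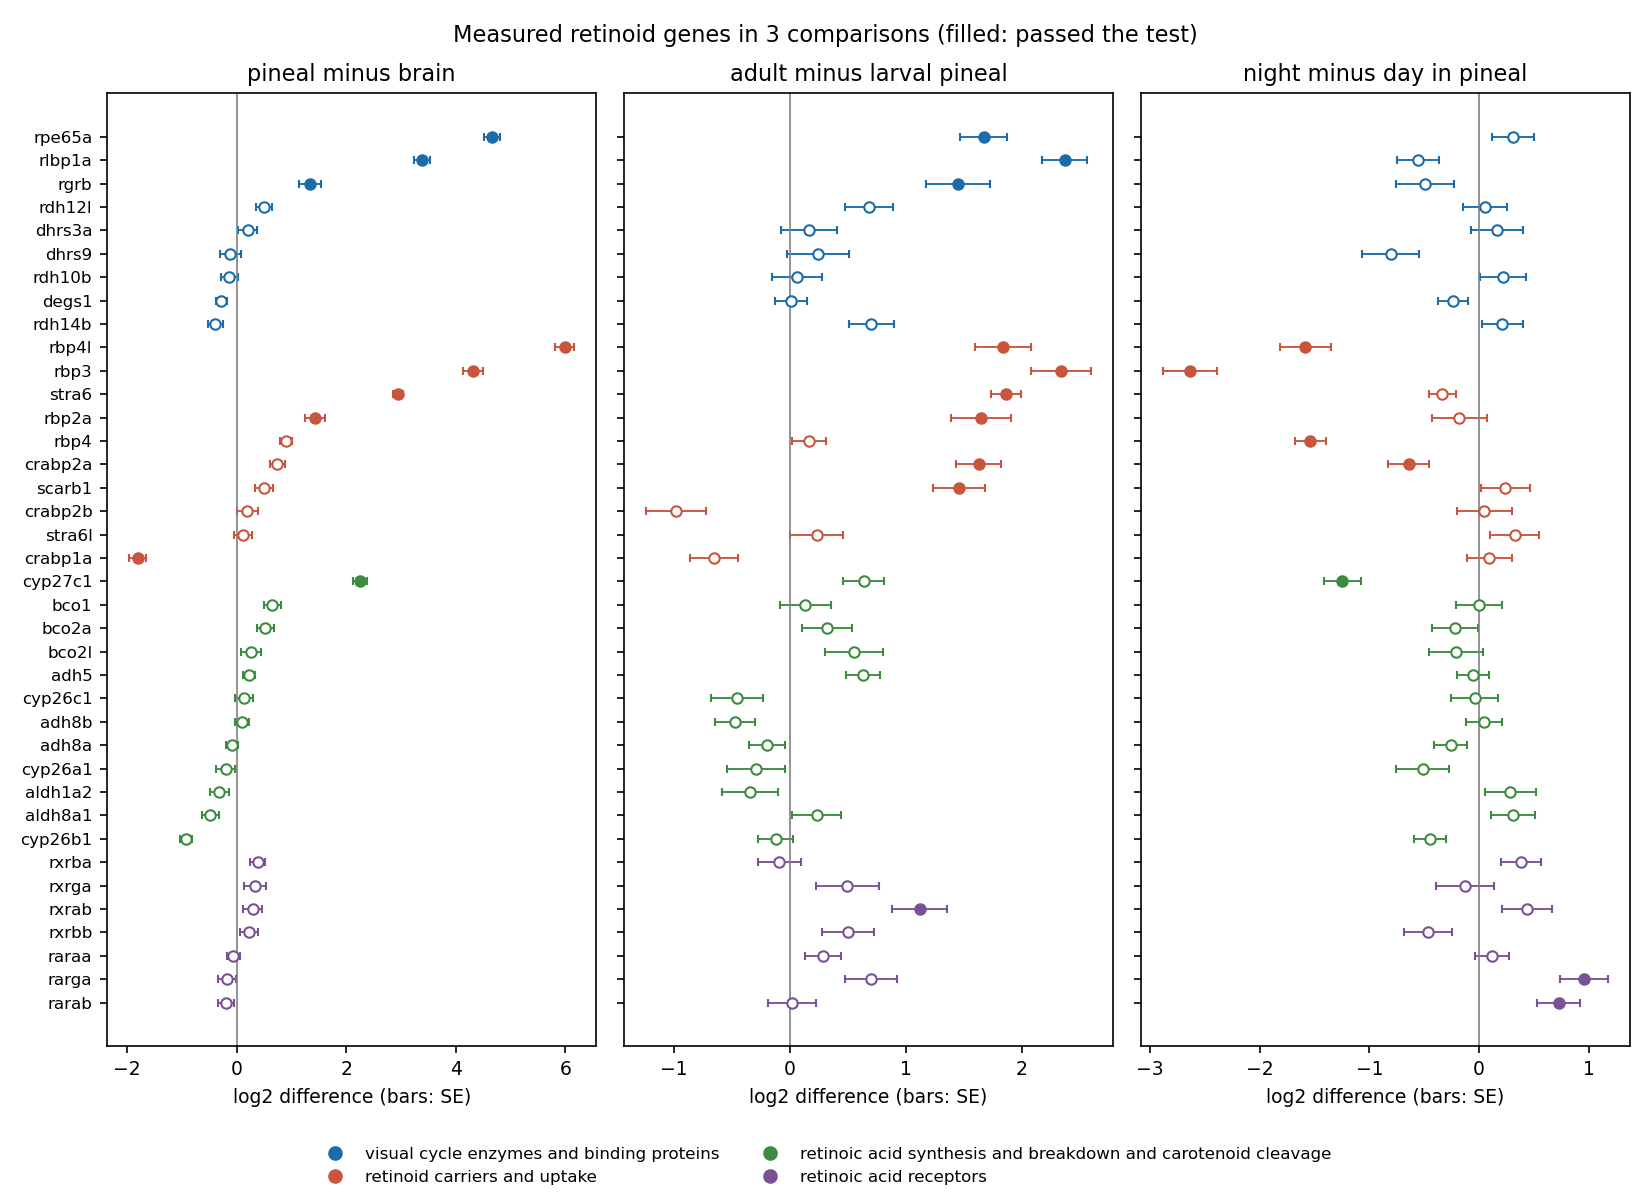
Log2 differences (x axis, limma estimate with standard error) of the measured retinoid genes (y axis, by list and by size in the first panel) between pineal and brain, adult and larval pineal, and night and day in pineal; filled points passed the test. The carriers and visual cycle genes hold most of the filled points in the first 2 panels, and cyp27c1 is the filled enzyme of its list in the tissue and night panels.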

How the data were processed

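Total RNA from each sample was labelled with biotin and hybridized to a 1-colour Affymetrix zebrafish array, per the labels' protocols. Each probe set had 1 deposited intensity per array, on a linear scale. Trimmed means without the highest and lowest 2% of values were 499.7 to 500.9, so the authors had scaled each array; the sources used here do not say how probes were combined, and detection calls were not used. A constant of 16 was added, log2 taken and arrays quantile normalized, after removal of 115 control probe sets.

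Group means were fitted with limma 3.58.1 in R 4.3.3 (trend, 49 residual and 14.3 prior degrees of freedom), with two-sided tests and Benjamini-Hochberg adjustment over 15502 probe sets. Tissue, stage and age-step calls required an adjusted p under 0.05 and 2-fold; night-day calls only the former. Of the probe sets, 10795 had 1 gene symbol, 135 several and 4572 none; for a listed gene with several, the one with the highest mean was used. Named genes were the members, the 5 nearest profiles of each, and up to 4 called genes of smallest adjusted p per list and direction. The members and lists were chosen with earlier results of these data known. The steps were tested on simulated data. Deviations from group means were compared between arrays of the same replicate number. They correlated above 0.1 in every pair in 1 of 10 comparisons of pineal with brain. That was by day at 1 to 2 years (0.199 or more). In 0 of 10 comparisons of day with night did every pair do so. For pineal with brain, mean correlations ran from -0.0032 to 0.27 for same-number pairs and from -0.091 to 0.0011 for other pairs. Same-number means were the higher except at 5 days by night. On the rule of every pair, the numbers were used as a block only in alternatives. The number of arrays limits precision; p-values measure the spread between samples labelled as biological replicates. The alternatives were no scaling or median centring, constants of 1 and 64, a filter at a mean log2 of 6, array weights, 1 tissue alone, leaving out or adjusting for high GAPDH ratios, replicate blocks, no trend, each array left out, and the other rpe65a probe set.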

Additional observations from a re-analysis of the deposited data

Results flagged for a closer look

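In each of the 9 groups of 4 or 5 arrays, the highest and lowest array of each of the 4 probe sets was set against the others of its group by Dixon's criterion, which chance passes in about 1 of 20 tests; of these 36 tests 2 passed. Pineal rpe65a by day at 5 days was 13.35 on replicate 5, against 11.58 to 11.87 on the other 4 arrays. Pineal cyp27c1 by day at 10 days was 11.23 on replicate 1, against 10.58 to 10.65 on the others.

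The change from larval to adult differed between pineal and brain by 2.01 for rpe65a, 2.75 for its second probe set and 2.66 for rlbp1a. The night minus day difference of cyp27c1 in pineal differed between adult and larval fish by -1.80, and over the 5 ages with an adjusted p of 0.0094 (limma F-test).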

How the results depend on the processing

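Of 41 called results for the members, 37 stayed called under each alternative run and without any 1 of the 69 arrays; the other 4 were the 3 brain night calls of rpe65a and the F-test of cyp27c1. That F-test had an adjusted p of 0.0585 with median centring and 0.0533 with only pineal arrays (0.00101 to 0.0546 with 1 array left out). The night difference of rlbp1a in pineal passed the test with a constant of 64 (-0.52) and without the 11 arrays of high GAPDH ratio (-0.72). In brain it changed sign from 0.01: -0.0194 with a constant of 64, -0.0067 with array weights, -0.0363 without high ratios, -0.0181 with the ratio as covariate, -0.0124 with a replicate block of age, time and number, and -0.14 to 0.11 with 1 array left out. The average night difference in brain passed for rpe65a with array weights (0.61) or its other probe set (1.18), and for cyp27c1 with array weights (-0.59) or without the day array of 5-day brain numbered 3 (-0.76; -0.76 to -0.50 over arrays left out). Adult minus larval brain was 0.0602 for rlbp1a without high ratios, and -0.22 to 0.0055 for cyp27c1 with 1 array left out.

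Small uncalled differences changed sign. Night minus day of rpe65a in 3-day pineal was -0.0878 without scaling, -0.14 with median centring, -0.30 without high ratios and -0.0141 with the covariate (-0.30 to 0.23 with 1 array left out). That of cyp27c1 in brain was 0.10 without high ratios and 0.0719 with the covariate at 3 days (-0.30 to 0.10), and 0.20 with the covariate at 1 to 2 years. From 3 months to 1 to 2 years in pineal, without high ratios, rlbp1a was at -0.0069 (-0.14 to 0.15) and cyp27c1 at -0.0908 (-0.0908 to 0.29). Night minus day of rlbp1a in pineal with 1 array left out was -0.28 to 0.20 at 3 months and -0.40 to 0.14 at 1 to 2 years. The causes were not tested.

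Counts over all probe sets moved most for night against day in brain, with 143 called and 1451 with array weights, 372 with only brain arrays, 90 without trend, 82 with median centring, 51 with the covariate and 38 without high ratios. In pineal 409 became 235 with only pineal arrays, and for adult against larval night differences 37 became 10 there, 16 with median centring and 56 with array weights. For pineal against brain night differences 20 became 87 with array weights, 10 with median centring, and 9 without high ratios or without trend. With 1 array left out the brain count was 94 or 82 without either 5-day night array, 90, 89 or 366 without day replicate 1, 2 or 3 of 1 to 2 years; the adult against larval count was 21 without night replicate 3 of 3 months, and the pineal against brain count 9 to 28. Adult against larval brain gave 1797 calls and 1187 with a constant of 64. Without scaling the median of all probe sets was 0.28 in adult minus larval pineal (-0.05 with it) and 0.30 in its excess over brain (-0.10), where calls moved from 1910 higher and 1620 lower to 3277 and 977. As deviations from group means, pairs of the same replicate number passed a correlation of 0.1 throughout in 1 of 10 comparisons of tissues and 0 of 10 of times. With the block of age and number, the pineal night count of 409 over all probe sets became 454. Among the results for the members, blocks by replicate number changed 1 call. The second rpe65a probe set in brain at 1 to 2 years had an adjusted p of 0.0543 with the block of age, time and number.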
